A study of Mus musculus with 14 samples.

Results

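The genes described here are 10 mouse counterparts of human Alzheimer's disease (AD) risk genes that are read out in microglia: Bin1, Picalm, Cd2ap and Sorl1 (endocytosis and trafficking), Inpp5d, Plcg2, Cd33 and Abi3 (immune receptor signalling), and Abca7 and Ms4a6d (lipid transport and membrane proteins). They were taken by gene symbol from the deposited expression values, not by any measured change, and all 10 of 10 were found among 14329 genes and passed the filter on low counts that left 12645 genes. RNA-seq was performed on 2000 CD45low CD11b+ CX3CR1+ cells per sample, sorted from the dorsal lumbar spinal cord of 6-month-old mice at day 5 after serum transfer (ST). WT mice were C57BL/6J mice without human transgenes. TASTPM mice were heterozygous for human transgenes that include APP with the Swedish mutation, driven by the murine Thy-1 promoter, which is active in neurons, so the microglia measured here are not the cells meant to express the transgenes. Mice of either genotype received K/BxN serum, which transfers inflammatory arthritis, or control serum pooled from KRN/C57 mice. There were 4 WT K/BxN ST, 3 WT Control ST, 4 TASTPM K/BxN ST and 3 TASTPM Control ST libraries. Libraries are numbered within their group in the order of the deposited columns. Replicates are individual animals by the study's methods, which used both sexes, but the labels do not give the sex of each library.

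Genome-wide association studies have linked variants near the human versions of these genes to late-onset AD, and several of them act mainly in microglia, the resident macrophages of the brain and spinal cord. In these cells, ligands of receptors such as TREM2 signal through the adaptor DAP12 and the kinase SYK to PLCG2, which cleaves a membrane phosphoinositide to raise calcium, while INPP5D (SHIP1) removes a phosphate from the lipid made by PI3-kinase and human CD33 carries inhibitory motifs that oppose the signal. BIN1, PICALM, CD2AP and SORL1 handle membrane curvature, clathrin coats, actin at sites of endocytosis and the sorting of cargo from endosomes, and ABCA7 moves phospholipids across membranes.

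The promoters of 4 members are shown as examples. The starts of Inpp5d and Cd33, used mainly in blood and immune lineages, held fewer CpG than the median promoter, Inpp5d by little. Those of Picalm, used in most cell types, and Plcg2 were rich in CpG. Each printed promoter is 300 bases from RefSeq on GRCm38.p6, from 250 bases before to 50 bases after a listed start. It is printed 5′ to 3′ on the strand of the gene. Capitals mark GAGGAAG, a core motif of the ETS factor PU.1, and CACGTG, an E-box, each searched on both strands. The windows are chr1:87620062-87620361 (plus strand) for Inpp5d, chr7:43533122-43533421 (minus strand) for Cd33, chr7:90129963-90130262 (plus strand) for Picalm and chr8:117498025-117498324 (plus strand) for Plcg2.
Inpp5d: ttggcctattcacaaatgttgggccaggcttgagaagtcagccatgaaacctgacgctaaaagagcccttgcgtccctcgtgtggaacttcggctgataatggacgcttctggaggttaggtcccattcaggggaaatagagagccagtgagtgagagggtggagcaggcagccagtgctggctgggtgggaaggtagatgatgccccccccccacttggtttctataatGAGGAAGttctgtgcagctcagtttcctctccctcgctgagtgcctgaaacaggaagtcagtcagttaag
Cd33: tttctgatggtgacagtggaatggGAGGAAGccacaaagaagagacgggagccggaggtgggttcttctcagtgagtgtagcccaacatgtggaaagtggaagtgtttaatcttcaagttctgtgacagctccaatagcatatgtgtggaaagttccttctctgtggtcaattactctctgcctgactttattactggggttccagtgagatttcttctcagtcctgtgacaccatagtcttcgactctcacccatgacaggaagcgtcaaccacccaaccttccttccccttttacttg
Picalm: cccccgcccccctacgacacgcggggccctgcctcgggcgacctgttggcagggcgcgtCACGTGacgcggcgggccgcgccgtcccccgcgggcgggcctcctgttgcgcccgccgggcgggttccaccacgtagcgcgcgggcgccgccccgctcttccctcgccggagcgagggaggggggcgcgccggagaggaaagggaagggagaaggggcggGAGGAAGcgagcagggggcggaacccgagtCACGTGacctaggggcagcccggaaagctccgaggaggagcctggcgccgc
Plcg2: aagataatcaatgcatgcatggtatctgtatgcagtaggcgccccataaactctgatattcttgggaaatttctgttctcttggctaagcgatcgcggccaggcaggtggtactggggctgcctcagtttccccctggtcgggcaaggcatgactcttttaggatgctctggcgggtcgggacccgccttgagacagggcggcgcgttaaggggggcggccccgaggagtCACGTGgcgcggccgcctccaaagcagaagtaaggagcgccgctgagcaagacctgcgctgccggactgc
The Cd33 promoter held 4 CpG dinucleotides at a GC content of 47.7% and that of Inpp5d held 6 at 53.7%, against a median of 7 and 52.7% over 32851 promoters. The Picalm promoter held 44 CpG at 78.0% GC, which placed it at the 97.8th percentile for CpG, and that of Plcg2 held 21. In total 7 of the 10 members matched the promoter table, with 8 windows because Sorl1 has 2. GAGGAAG was found once in each of the windows of Inpp5d, Cd33 and Picalm and in none of the other 5, and in 13.6% of all promoters. CACGTG was found 2 times in Picalm, once in Plcg2 and once in 1 of the 2 Sorl1 windows, and in 7.15% of all promoters. Abi3, Bin1 and Ms4a6d had no entry in it. Apart from the match of letters, binding was not measured in these samples.

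Libraries held 14223015 to 20239175 reads on genes. All 12 microglia markers, including P2ry12, Tmem119 and Cx3cr1, were detected in every library. In 4 K/BxN ST libraries (WT libraries 1 and 2 and TASTPM libraries 1 and 2) the 11 measured of 12 monocyte markers together took 2.28% to 4.36% of the reads, compared with 0.0523% to 0.141% in the other 10 libraries. The sort gate of the study was also negative for the monocyte surface markers Ly6C and CCR2. Of the monocyte markers, 11 of 11 had reads in each of the 4 libraries, while 1 to 3 of them were at 0 in each of the other 10. In the same 4 libraries microglia markers took 2.13% to 5.09% of the reads, against 6.003% to 7.98% elsewhere. Neutrophil markers took 1.23% to 1.36% in WT library 1 and TASTPM libraries 1 and 2, but 0.0219% in WT library 2. In the other 10 libraries they took 4.45e-05% to 0.0163%. The 4 libraries high in monocyte markers also all had summed counts of 4 Y-linked genes between 1872 and 2272. Among the other 10 libraries, the Y-linked sum was 852 to 2737 in the 3 WT Control ST libraries, 2577 in TASTPM Control ST library 3 and 2145 in TASTPM K/BxN ST library 3, and 1.09 to 46.3 in the remaining 5, which include both other WT K/BxN ST libraries. WT Control ST library 3 had 1706 counts of the X-inactivation transcript Xist as well as Y-linked reads. Without the 4 libraries, serum and Y-linked expression therefore cannot be told apart in WT. The serum response of each member is therefore given with and without the 4 libraries. The counts and medians of gene lists, and the fold changes of genes named from them, rest on all libraries. In sorted bulk samples, fewer cells of a type and less RNA per cell cannot be told apart.

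The members spanned a wide range of expression in these libraries. On the scale of normalized counts (reads of a gene divided by 1 factor per library) per kb of the annotated reference transcript, Ms4a6d had the highest level, with a mean of 3024 ± 1104 (SD, n = 14), followed by Inpp5d at 1919 ± 525 and Bin1 at 1351 ± 333. Next came Cd33 at 1230.2 ± 259, Plcg2 at 932 ± 186, Abi3 at 590.1 ± 123 and Picalm at 395 ± 103. Sorl1 (129 ± 53.6), Cd2ap (104.3 ± 28.9) and Abca7 (75.2 ± 34.2) formed the lower end of the order. By this level Ms4a6d stood at the 97.5th percentile of the genes tested that had a length, Sorl1 at the 54.0th and Abca7 at the 40.4th. All these means include the 4 libraries high in monocyte markers, where Ms4a6d was at its highest and Inpp5d at its lowest. The neighbours Ms4a6d and Inpp5d, Bin1 and Cd33, Cd33 and Plcg2, Sorl1 and Cd2ap, and Cd2ap and Abca7 did not differ beyond the spread of their ratio over libraries. Picalm was above Sorl1 in 14 of 14 libraries, and this was the only neighbouring pair whose ranges did not overlap. With the length of all annotated exons in place of the reference transcript, Plcg2 moved to the third place and Cd2ap fell behind Abca7.

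**Figure D1:**
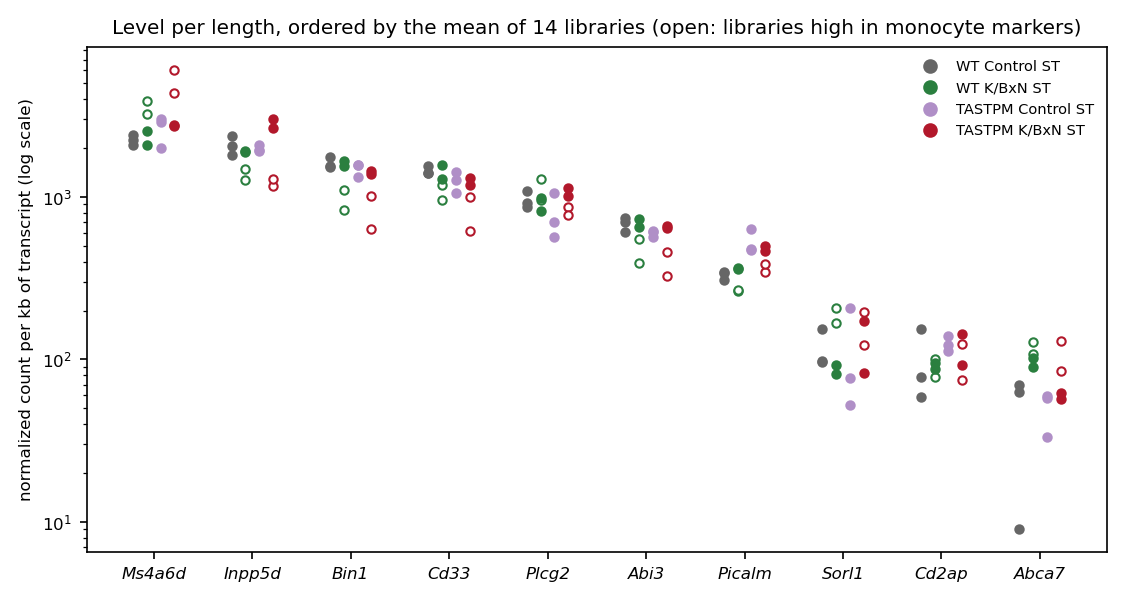
Normalized count per kb of reference transcript (log axis) for each of the 10 genes in each of the 14 libraries, coloured by group, with open circles for the 4 libraries high in monocyte markers. Ms4a6d and Inpp5d are at the top, and a gap separates Picalm (lowest library 264) from Sorl1 (highest library 207).

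No member passed the test for a response to K/BxN serum in either genotype, and none passed it between genotypes. With limma across all 12645 genes, a call needed a Benjamini-Hochberg adjusted p below 0.05 and a log2 fold change beyond 1 in either direction. In WT, 0 of 10 members were called for K/BxN ST against Control ST, beside 0.00791% of all genes, and 1 of 10 had an unadjusted p below 0.05, beside 7.13% of all genes. In TASTPM the counts were 0 of 10 called (0% of all genes) and 0 of 10 with an unadjusted p below 0.05 (4.22%). Between genotypes, 0 members were called under Control ST (0%) or K/BxN ST (0%), and 1 had an unadjusted p below 0.05 in each (5.57% and 1.91% of all genes). For the interaction of genotype and serum, 0 members were called (0%) and 0 had an unadjusted p below 0.05 (3.04%). edgeR and DESeq2 on the recovered reads also called 0 members in each of the 5 comparisons. Over all 12645 genes edgeR called 0 in each. DESeq2 called 127 for serum in WT and 16 in TASTPM. It called 41 between genotypes under Control ST, 0 under K/BxN ST and 12 for the interaction. The median log2 fold change of the 10 members was -0.04 in WT and -0.16 in TASTPM after K/BxN serum, compared with 0.06 and 0.01 over all genes tested.

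**Figure D2:**
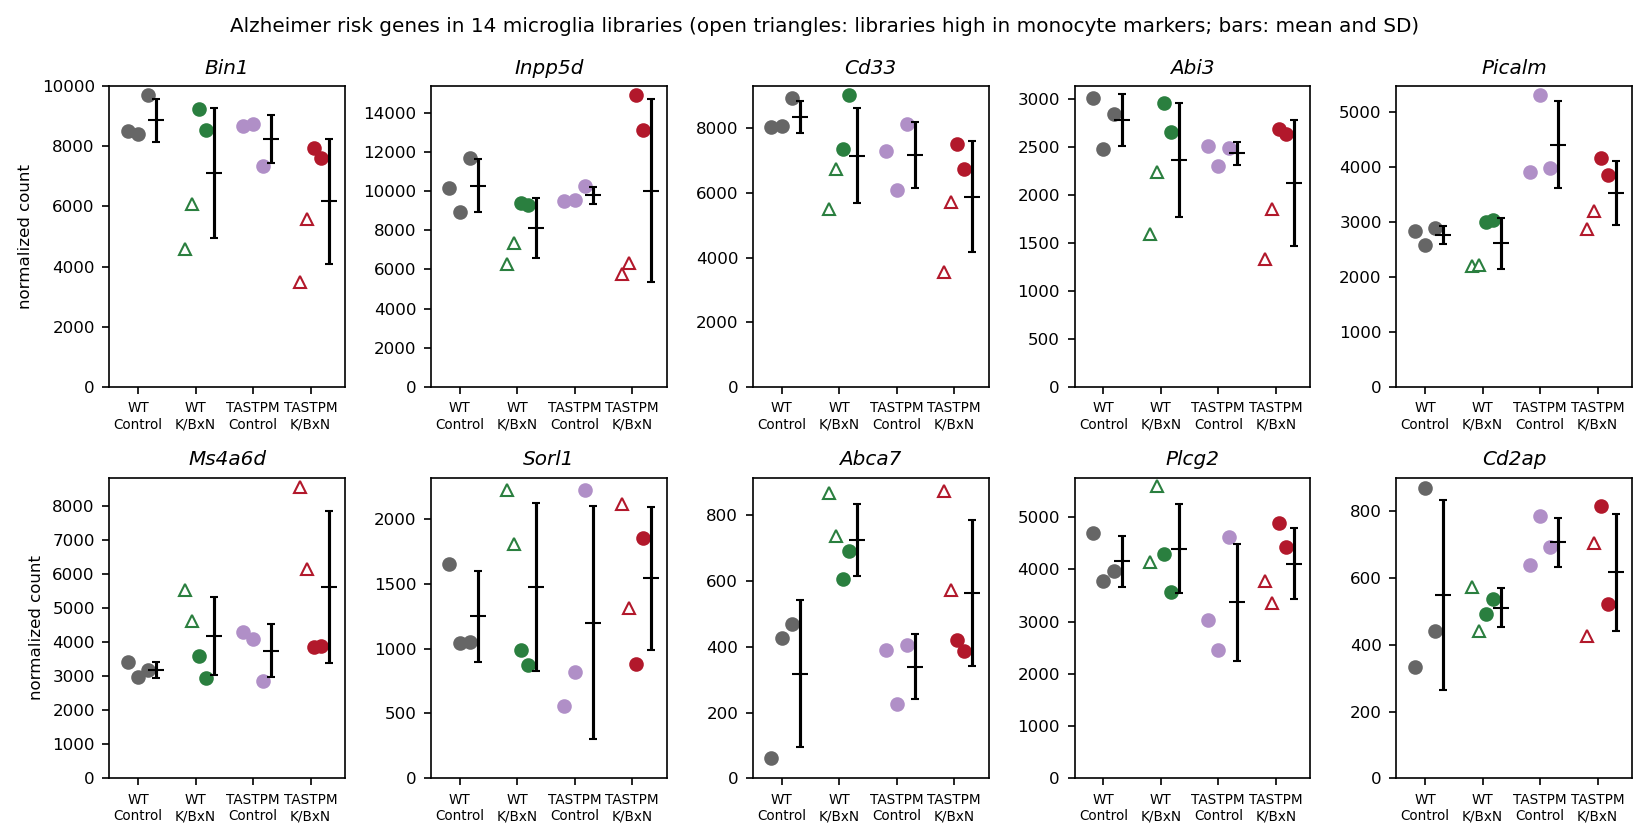
Normalized count of each member in the 14 libraries by group, with the mean and SD in black beside the points and open triangles for the 4 K/BxN ST libraries high in monocyte markers. In Bin1, Inpp5d, Cd33, Abi3 and Picalm the triangles lie below the filled points of their own group, and in Ms4a6d and Abca7 above them.

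Bin1 encodes a BAR-domain protein that bends membranes and is located on GRCm39 chromosome 18 (32509621 to 32571547, plus strand). WT Control ST libraries had 8499, 8404 and 9698 normalized counts, whereas the WT K/BxN ST libraries had 4601, 6073, 9250.1 and 8549.6. In TASTPM the counts were 8669, 8734 and 7338 under Control ST and 3486, 5598, 7959 and 7622 under K/BxN ST. The lowest 4 values were those of the 4 libraries high in monocyte markers, and the other 10 lay between 7338 and 9698. K/BxN serum gave a log2 fold change of -0.37 (SE 0.29, limma adjusted p = 0.785) in WT and -0.49 (SE 0.29, adjusted p = 0.964) in TASTPM. When these 4 were left out it was 0.01 (95% interval -0.32 to 0.34) in WT and -0.08 (-0.41 to 0.25) in TASTPM.

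Picalm encodes a clathrin assembly protein and lies on chromosome 7 (89779270 to 89862673, plus strand). WT mice had 2826, 2574 and 2890.1 normalized counts under Control ST and 2193, 2212, 2992 and 3033 under K/BxN ST. TASTPM Control ST gave 3912, 5308 and 3979, and TASTPM K/BxN ST gave 2875, 3199.7, 4161 and 3845. Each TASTPM Control ST library was above every WT library of either serum, whereas TASTPM K/BxN ST library 1 lay below 3 of the WT libraries. After K/BxN serum the log2 fold change was -0.10 (SE 0.20, limma adjusted p = 0.912) in WT and -0.32 (SE 0.20, adjusted p = 0.964) in TASTPM, and the groups overlapped in each genotype. In the 10 other libraries alone it was 0.13 (95% interval -0.28 to 0.53) and -0.12 (-0.53 to 0.28).

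Cd2ap encodes a scaffold between endocytic cargo and actin, on chromosome 17 (43103839 to 43187613, minus strand). WT libraries had 334, 871 and 442 normalized counts under Control ST and 574, 441, 493 and 539 under K/BxN ST, and TASTPM libraries had 640.3, 787 and 693 under Control ST and 425, 704, 816 and 523 under K/BxN ST. WT Control ST alone spanned the range of both WT groups. The serum response was 0.01 (SE 0.32, limma adjusted p = 0.996) in WT and -0.24 (SE 0.32, adjusted p = 0.966) in TASTPM on the log2 scale, and 0.03 (95% interval -0.86 to 0.92) and -0.11 (-1.001 to 0.79) when the libraries high in monocyte markers were left out.

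Sorl1 encodes a sorting receptor that returns cargo from endosomes, on chromosome 9 (41876012 to 42035656, minus strand). It varied widely within groups. WT libraries had 1656, 1042 and 1052 normalized counts under Control ST and 2220.2, 1809, 988 and 876 under K/BxN ST. TASTPM libraries had 559.9, 820.5 and 2223 under Control ST and 2114, 1316, 881 and 1852 under K/BxN ST. The 5 highest values included TASTPM Control ST library 3, and each K/BxN ST group overlapped its control. Its response to serum was 0.16 (SE 0.46, limma adjusted p = 0.940) in WT and 0.54 (SE 0.46, adjusted p = 0.964) in TASTPM on the log2 scale, and without the 4 libraries it was -0.39 (95% interval -1.52 to 0.74) and 0.34 (-0.79 to 1.47). The intervals are too wide to give a direction for Sorl1.

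Inpp5d, the gene for the lipid phosphatase SHIP1, lies on chromosome 1 (87547989 to 87648230, plus strand). WT Control ST libraries had 10179.5, 8957 and 11681 normalized counts, compared with 6295, 7345, 9415 and 9313 after K/BxN serum. TASTPM Control ST libraries had 9495, 9555 and 10276, and TASTPM K/BxN ST libraries had 5779.6, 6318, 14893 and 13122. The TASTPM K/BxN ST group was thus split around its control: the 2 libraries high in monocyte markers were below all 3 control libraries, and the other 2 were above them and were the highest of the 14. With all libraries, the log2 fold change of Inpp5d after serum was -0.36 (SE 0.30, limma adjusted p = 0.791) in WT and -0.09 (SE 0.30, adjusted p = 0.988) in TASTPM. Without the 4 libraries, Inpp5d stood at 0.52 (SE 0.15, 95% interval 0.18 to 0.86, unadjusted p = 0.00623, limma adjusted p = 0.996) in TASTPM, a 1.43-fold difference that rests on 2 K/BxN ST libraries, and at -0.13 (SE 0.15, interval -0.46 to 0.21) in WT. The interaction without those libraries was 0.64 (SE 0.22, unadjusted p = 0.0130, adjusted p = 0.998). In that fit of 10 libraries 1 of 10 members had an unadjusted p below 0.05 in TASTPM and for the interaction, beside 4.03% and 3.91% of all genes.

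Plcg2 encodes the phospholipase downstream of TREM2 and is on chromosome 8 (118224988 to 118361881, plus strand). In WT its normalized counts were 4703, 3782 and 3968 under Control ST and 4142, 5591, 4291 and 3568 under K/BxN ST, and in TASTPM they were 3034.5, 2455 and 4617 under Control ST and 3772, 3361, 4895 and 4419 under K/BxN ST. Serum groups overlapped in both genotypes, with log2 fold changes of 0.07 (SE 0.23, limma adjusted p = 0.948) in WT and 0.32 (SE 0.23, adjusted p = 0.964) in TASTPM. Leaving out the 4 libraries high in monocyte markers gave -0.08 (95% interval -0.62 to 0.47) in WT and 0.52 (SE 0.25, interval -0.03 to 1.06, unadjusted p = 0.0611, adjusted p = 0.996) in TASTPM, the latter from 2 K/BxN ST libraries. Unlike Bin1 or Abi3, Plcg2 was not at its lowest in those 4 libraries, which had 3361 to 5591 against 2455 to 4895 in the other 10.

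Cd33, which encodes a sialic acid-binding receptor of the Siglec family, is on chromosome 7 (43173634 to 43193875, minus strand). Control ST libraries of WT had 8057, 8071 and 8931 normalized counts, and those after K/BxN serum had 5492, 6739.9, 7364 and 9037. In TASTPM the values were 7306, 6084 and 8124 under Control ST and 3542, 5735, 7532 and 6739 under K/BxN ST. In WT, 3 of 4 K/BxN ST libraries were below all 3 control libraries and 1 was above them. The log2 fold change was -0.24 (SE 0.24, limma adjusted p = 0.814) in WT and -0.33 (SE 0.24, adjusted p = 0.964) in TASTPM, and without the 4 libraries it was -0.03 (95% interval -0.41 to 0.35) and 0.00 (-0.38 to 0.38).

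Abi3 encodes an adaptor of the actin-regulating WAVE complex and is on chromosome 11 (95720900 to 95733302, minus strand). WT libraries had 3005, 2477 and 2842 normalized counts under Control ST and 1595, 2239.8, 2956 and 2653 under K/BxN ST, and TASTPM libraries had 2510.1, 2295 and 2483 under Control ST and 1327, 1850.0, 2679.7 and 2629 under K/BxN ST. The 4 lowest values were again those of the libraries high in monocyte markers. Serum gave a log2 fold change of -0.27 (SE 0.26, limma adjusted p = 0.813) in WT and -0.25 (SE 0.26, adjusted p = 0.964) in TASTPM, against 0.02 (95% interval -0.37 to 0.41) and 0.13 (-0.26 to 0.52) without them.

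Abca7 encodes a phospholipid transporter of the ABCA family and lies on chromosome 10 (79832280 to 79851410, plus strand). WT libraries had 60.9, 427 and 469 normalized counts under Control ST, compared with 867, 736, 607 and 690.2 after K/BxN serum. Every WT K/BxN ST library was above every WT Control ST library, a pattern that 3.67% of all genes tested showed in this direction. The log2 fold change was 1.64 (SE 0.57, 95% interval 0.43 to 2.85), or 3.11-fold, with an unadjusted p of 0.0115 and a limma adjusted p of 0.605. A two-sided exact permutation test over the 35 splits gave p = 0.0571, which is the smallest p that 4 against 3 libraries allow, so this test could not pass 0.05 for any serum response. WT Control ST library 1 set much of the size, and without it the log2 fold change was 0.68 (adjusted p = 0.837). Leaving out the 4 libraries high in monocyte markers gave 1.48 (95% interval -0.15 to 3.12, adjusted p = 1). In TASTPM, Abca7 had 391, 225 and 404 normalized counts under Control ST and 875, 574, 422 and 387 under K/BxN ST, a log2 fold change of 0.70 (SE 0.57, adjusted p = 0.964), or 0.30 (95% interval -1.34 to 1.93) without the 4 libraries. The interaction for Abca7 was -0.94 (SE 0.80, adjusted p = 0.999), so a different response in the 2 genotypes was not shown.

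Ms4a6d encodes a tetraspanning membrane protein of the Ms4a family and is on chromosome 19 (11563968 to 11582213, minus strand). WT libraries had 3423, 2965 and 3182 normalized counts under Control ST and 5551, 4618, 3609 and 2947 under K/BxN ST. TASTPM libraries had 4303, 4098 and 2854 under Control ST and 8561, 6159.7, 3872 and 3900.1 under K/BxN ST. The 4 highest values were in the libraries high in monocyte markers. Across all libraries the log2 fold change of Ms4a6d was 0.35 (SE 0.29, limma adjusted p = 0.790) in WT and 0.52 (SE 0.29, adjusted p = 0.964) in TASTPM, and it was 0.03 (95% interval -0.42 to 0.49) and 0.07 (-0.38 to 0.53) without them.

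**Figure D3:**
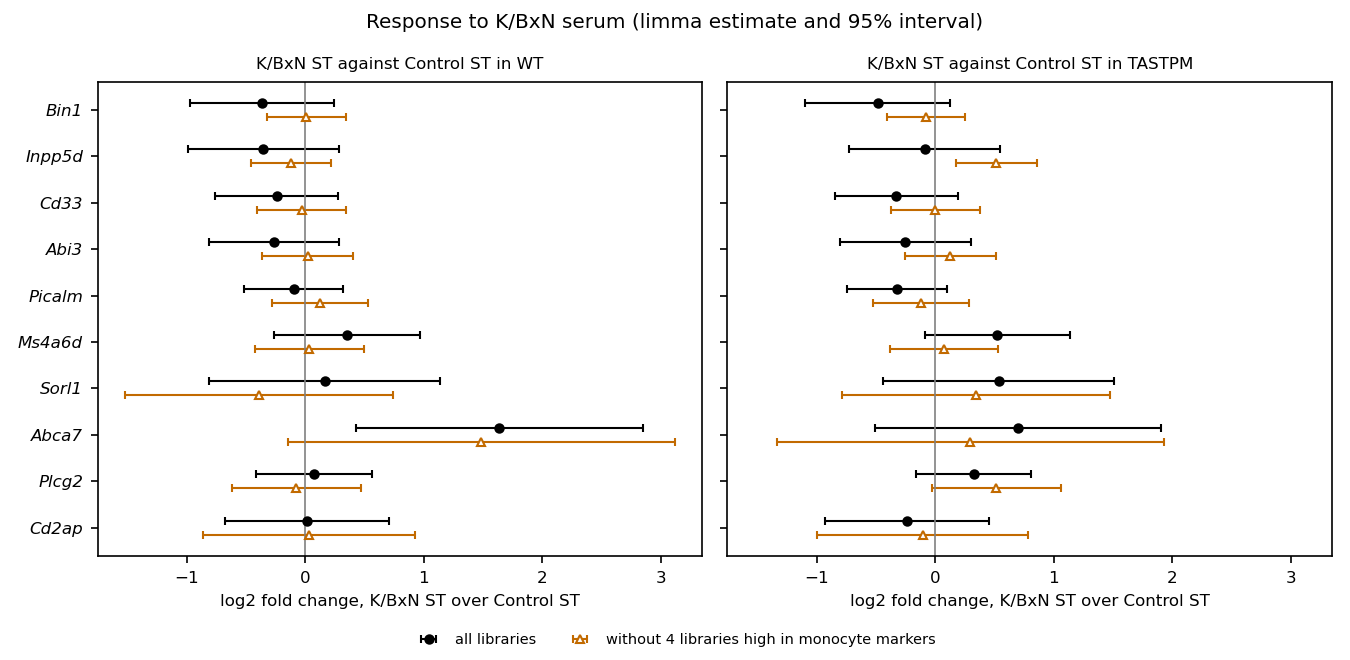
Log2 fold change of each member after K/BxN serum (x axis) with its 95% interval, in WT (left) and TASTPM (right), from all 14 libraries (black circles) and from the 10 libraries without those high in monocyte markers (orange triangles). Without the 4 libraries Bin1, Cd33, Abi3 and Ms4a6d lie within 0.13 of 0 in both genotypes, and Inpp5d in TASTPM is at 0.52.

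Members whose groups did not overlap were also counted. In WT, 1 member (Abca7) was higher in every K/BxN ST library than in every Control ST library and 0 were lower, beside 3.67% and 3.71% of all genes. In TASTPM 0 were higher and 0 lower, beside 2.67% and 2.74%. Without the 4 libraries, where 2 K/BxN ST libraries face 3 Control ST libraries, Abca7 and Picalm were higher (9.71% of all genes) and Sorl1 lower (8.84%) in WT, and Abi3 and Inpp5d were higher (9.46%) and 0 lower (9.32%) in TASTPM. Between genotypes, 1 member (Picalm) was higher and 0 were lower in every TASTPM library under Control ST (4.97% and 4.71% of all genes), and 0 were higher and 0 lower under K/BxN ST (1.16% and 0.672%). With 2 against 2 K/BxN ST libraries, Inpp5d, Ms4a6d, Picalm and Plcg2 were higher in TASTPM (16.8%) and Abca7 and Bin1 lower (17%).

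The members fell into different patterns across the K/BxN ST libraries. Relative to the mean log2 value of Control ST of the same genotype, Bin1 was lower in 4 of 4 libraries high in monocyte markers (log2 ratio -1.24 to -0.54), as were Cd33 (-1.01 to -0.31), Abi3 (-0.87 to -0.30), Inpp5d (-0.76 to -0.48) and Picalm (-0.60 to -0.32). Ms4a6d was higher in 4 of 4 (0.54 to 1.21), as were Abca7 (0.80 to 1.91) and Sorl1 (0.39 to 1.07), while Plcg2 ranged from 0.00 to 0.44 and Cd2ap from -0.73 to 0.18. In the other 4 K/BxN ST libraries, Bin1 (-0.11 to 0.06), Cd33 (-0.18 to 0.12), Abi3 (-0.06 to 0.14), Picalm (-0.18 to 0.14) and Ms4a6d (-0.11 to 0.18) lay on both sides of the control mean. Inpp5d ranged there from -0.13 to 0.61, Plcg2 from -0.21 to 0.59, Sorl1 from -0.48 to 0.88 and Cd2ap from -0.43 to 0.21, so that these ranges of Plcg2, Sorl1 and Cd2ap, unlike that of Inpp5d, overlapped those in the libraries high in monocyte markers. TASTPM Control ST library 3, at a ratio of 1.14, was above all K/BxN ST libraries for Sorl1. Abca7 was above the control mean in 4 of 4 of these as well (0.23 to 1.58), which also overlapped, with the 2 WT libraries at the upper end and the low WT Control ST library 1 in that mean. These ratios are a description of single libraries, and the part of monocyte RNA or of the Y-linked difference in them was not tested.

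**Figure D4:**
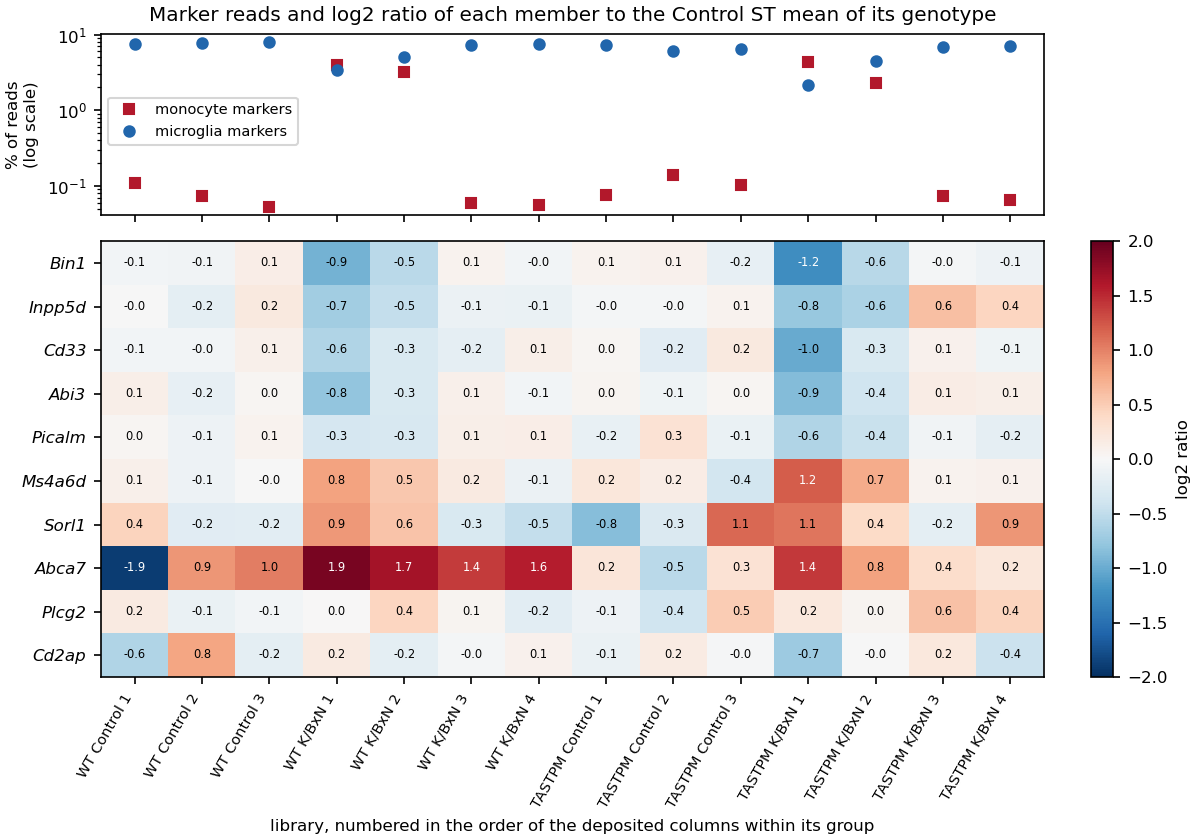
Top: share of reads (percent, log axis) on monocyte and microglia markers in each library. Bottom: log2 ratio of each member to the Control ST mean of its genotype, with columns in the same library order. The 4 K/BxN ST libraries with 2.28% to 4.36% monocyte marker reads show negative ratios for Bin1, Inpp5d, Cd33, Abi3 and Picalm and positive ratios for Ms4a6d, Sorl1 and Abca7.

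Between genotypes, Picalm was the member with the lowest p in each serum in the fit to all libraries. Under Control ST it was higher in TASTPM than in WT in 3 of 3 libraries, with means of 4400 ± 787 and 2763 ± 167 (SD, n = 3 each) and a log2 fold change of 0.66 (SE 0.21, 95% interval 0.21 to 1.11), or 1.58-fold. The unadjusted p was 0.00697 and the limma adjusted p 0.741. Groups that did not overlap in this direction were found for 4.97% of all genes, and the two-sided exact permutation p was 0.100, the smallest that 3 against 3 libraries allow. Under K/BxN ST Picalm was 3520.2 ± 587 in TASTPM and 2608 ± 468 in WT (SD, n = 4 each), 3 of 4 TASTPM libraries were above all WT libraries, and the log2 fold change was 0.44 (SE 0.18, unadjusted p = 0.0305, adjusted p = 1.00, two-sided exact permutation p = 0.0857). Leaving out the 4 libraries gave 0.41 under K/BxN ST (95% interval -0.04 to 0.85). The TASTPM Control ST libraries with few Y-linked reads (1 and 2, with summed counts of 2.09 and 3.33) had 3912 and 5308 Picalm counts and library 3, at 2577, had 3979, all above the WT Control ST libraries, whose Y-linked sums were 852 to 2737. Fitted with Y-linked expression as a covariate, the Picalm difference was 0.45 under Control ST (unadjusted p = 0.0522) and 0.52 under K/BxN ST (unadjusted p = 0.00787), with limma adjusted p of 0.698 and 1.00.

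The other 9 members gave no unadjusted p below 0.05 between genotypes in the fit to all libraries. Under Control ST their log2 fold changes (TASTPM over WT) ran from -0.35 for Plcg2 (SE 0.24, limma adjusted p = 0.932) to 0.51 for Abca7 (SE 0.61, adjusted p = 0.978), and that of Abca7 turned to -0.44 without WT Control ST library 1. Under K/BxN ST they ran from -0.43 for Abca7 (SE 0.52, adjusted p = 1.00) to 0.39 for Ms4a6d (SE 0.27, adjusted p = 1.00). Inpp5d, at 0.20 (SE 0.28) with all libraries, was 0.58 (SE 0.17, unadjusted p = 0.00550, adjusted p = 1) without the 4 libraries, again resting on 2 libraries in each K/BxN ST group. In that fit 3.95% of all genes had an unadjusted p below 0.05.

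**Figure D5:**
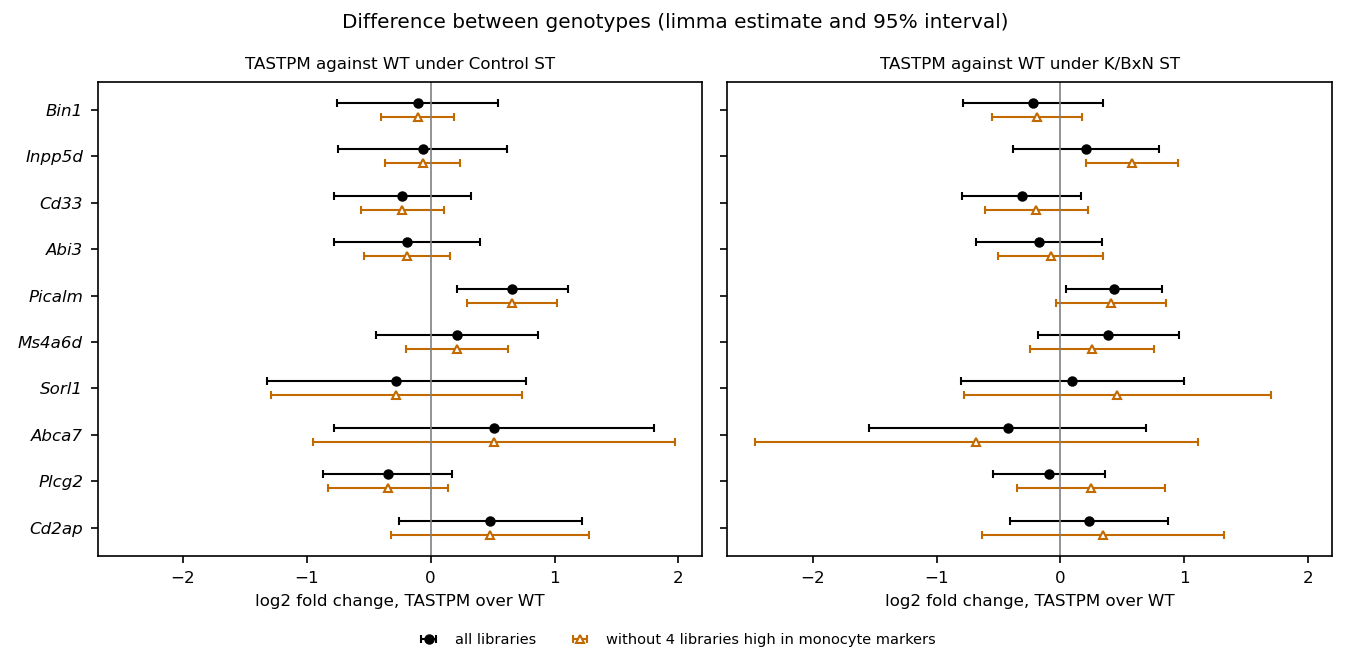
Log2 fold change of TASTPM over WT (x axis) with its 95% interval under Control ST (left) and K/BxN ST (right), from all libraries (black circles) and without the 4 libraries high in monocyte markers (orange triangles). Picalm lies above 0 in both panels, at 0.66 and 0.44 with all libraries.

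Members also differed in how steady they were between libraries of one group. With all libraries Picalm had the smallest within-group SD, 0.23 on the log2 scale, followed by Plcg2 (0.30), Cd33 (0.33) and Abi3 (0.35). Sorl1 (0.68) and Abca7 (0.83) had the largest, and Sorl1 was more variable than 95.8% of 500 genes of similar level. The SD of Abca7 rested on WT Control ST library 1 and was 0.40 when that library was left out. Over the 10 libraries not high in monocyte markers the SD ran from 0.10 for Abi3 and 0.11 for Bin1 to 0.71 for Sorl1 and 0.99 for Abca7. Single libraries weighed heavily there: the SD of Abca7 fell to 0.31 without WT Control ST library 1, that of Cd2ap from 0.46 to 0.26 without WT Control ST library 2, and that of Picalm from 0.16 to 0.07 without TASTPM Control ST library 2. Leaving out TASTPM Control ST library 3 lowered the SD of Sorl1 to 0.45, that of Plcg2 from 0.30 to 0.17 and that of Ms4a6d from 0.21 to 0.12. In the same 10 libraries, the genes whose log2 values correlated best with each member were, for Bin1, Tbc1d1, Tmem219 and Lair1, for Picalm, Sult1a1, Glul and Abracl, and for Cd33, Ythdf3, Slc7a8 and Tgfbr2. Inpp5d was closest to Stat4, Rbm14 and Eef2k, Plcg2 to Il17ra, Chpf2 and Ccdc86, and Abi3 to Vps33a, Naglu and Gm38317. The closest to Sorl1 were Cyp4f18, Ltbr and Gm16279, to Cd2ap Top2b, Zbtb38 and Nelfe, to Abca7 D11Wsu47e, Gm43857 and Gtpbp1, and to Ms4a6d Glns-ps1, Ap1s1 and Il7r. The best Pearson r lay between 0.90 for Bin1 and 0.97 for Ms4a6d. For Abca7, r was 0.97, 0.97 and 0.96 for its 3 genes, against Spearman rho of 0.88, 0.55 and 0.77, and r fell to 0.84, 0.84 and 0.78 without WT Control ST library 1. For each member they are the highest over all other genes tested, in 10 libraries that share groups and depth, and they describe likeness in these libraries alone.

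Genes that act beside the members were read from lists. Over all genes tested, limma called 0.00791% in WT and 0% in TASTPM after K/BxN serum. A list below with 0 calls therefore does not differ from all genes. Among 35 tested genes of TREM2-DAP12 and PLCG2 signalling, 0 were called by limma in WT and 0 in TASTPM after K/BxN serum, and the median log2 fold change was 0.09 and 0.03, close to the 0.06 and 0.01 of all genes. The lowest unadjusted p in WT belonged to Dok3, an adaptor that restrains immune receptor signalling (1.08, SE 0.32, adjusted p = 0.538), and to Plcg1, the paralog of Plcg2 (-1.40, SE 0.44, adjusted p = 0.568). In TASTPM they belonged to Card9 (-1.46, SE 0.63, adjusted p = 0.964) and Btk (-0.47, SE 0.24, adjusted p = 0.964). Plcg1 had 417, 568 and 355 normalized counts under WT Control ST and 203, 151, 154 and 156 after K/BxN serum, and every K/BxN ST library was lower, as for 3.71% of all genes tested. Among the libraries high in monocyte markers, Trem2 itself had 9858 and 21307 normalized counts in TASTPM and 12665 and 18617 in WT. In the other 10 libraries it had 19971 to 34698.

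For the trafficking members, 34 genes of clathrin endocytosis and 25 of retromer and sortilin receptor trafficking were tested. Of these, 0 were called in either genotype, beside 0.00791% of all genes in WT and 0% in TASTPM. The clathrin list had medians of 0.04 in WT and 0.03 in TASTPM, with Itsn1 (4.33, SE 1.62, limma adjusted p = 0.667) and Dab2 (3.24, SE 1.23, adjusted p = 0.668) lowest in p in WT and Ap2a2 (0.92, SE 0.42, adjusted p = 0.964) and Rin3 (0.67, SE 0.37, adjusted p = 0.964) in TASTPM. Itsn1 had 0, 50.3 and 0 normalized counts under WT Control ST, so low control values set much of its fold. Under WT K/BxN ST it had 101 and 185 in the libraries high in monocyte markers and 38.2 and 40.3 in the others, and the groups overlapped. Dab2 was at 0.937 in WT Control ST library 1, the library where Abca7 was also low, and at 181 and 215 in the other WT Control ST libraries. The retromer list had medians of 0.14 and 0.10, and the genes lowest in p in TASTPM were Ap1m1, a subunit of the AP-1 coat adaptor (0.76, SE 0.24, adjusted p = 0.964), and Snx2 (0.62, SE 0.25, adjusted p = 0.964). In WT, Washc2 was at 0.56 (SE 0.22, adjusted p = 0.668) and Ap1m1 at 0.45 (SE 0.24, adjusted p = 0.713). Of 21 tested genes of the WAVE complex and actin list, the partners of Abi3, 0 were called, with medians of 0.10 and 0.21. Those lowest in p were Arpc3 (0.61, SE 0.32, adjusted p = 0.712) and Arpc1b (0.77, SE 0.45, adjusted p = 0.734) in WT and Rac2 (1.01, SE 0.49, adjusted p = 0.964) and Wipf1 (-0.49, SE 0.27, adjusted p = 0.964) in TASTPM.

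The family of Ms4a6d showed wide differences between libraries. All 4 tested relatives had positive log2 fold changes in both genotypes, with medians of 2.36 in WT and 1.505 in TASTPM, and 0 were called by limma. Ms4a6c had 8350.2, 3614, 6674 and 4214 normalized counts in the 4 libraries high in monocyte markers and 162 to 984 in the other 10. Ms4a4a had 3673 to 10607 in the 4 libraries and 0 to 242 in the other 10 (WT fold change 6.72 on the log2 scale, SE 2.99, adjusted p = 0.684), and Ms4a4c, which is itself on the monocyte marker list, had 5139 to 11170 against 114 to 413 (TASTPM 2.67, SE 1.43, adjusted p = 0.964). Ms4a6b had 5853 to 9969 in the 4 libraries and 1722 to 3991 in the other 10 (TASTPM 0.73, SE 0.49, adjusted p = 0.964). Ms4a6d, at 4618 to 8561 against 2854 to 4303, lay in the same direction by a smaller ratio. Ms4a genes are close paralogs, and reads that the counting could not place between them could alter single values.

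Among 7 tested Siglec genes other than Cd33, 0 were called, with medians of -0.05 in WT and -0.27 in TASTPM. Siglech, a microglial Siglec, was at -0.47 (SE 0.35, limma adjusted p = 0.775) in WT and at -0.51 (SE 0.35, adjusted p = 0.964) in TASTPM. Siglec1 was at 2.59 (SE 1.93, adjusted p = 0.778) and 4.05 (SE 1.93, adjusted p = 0.964), from counts that included 0 in 5 libraries, and Mag at -1.22 (SE 0.53, adjusted p = 0.964) in TASTPM. Among 6 tested ABCA transporters other than Abca7, 0 were called, and the medians were 0.28 in WT and -0.34 in TASTPM. Abca1, which exports cholesterol, was at -0.65 (SE 0.40, adjusted p = 0.757) in WT, opposite in sign to Abca7. Abca6 was at 3.84 (SE 2.33, adjusted p = 0.746) in WT, where it was at 0 in 5 of 7 libraries. Its counts of 198 and 210 were in WT K/BxN ST libraries 1 and 2, both high in monocyte markers. In TASTPM Abca9 was at -0.52 (SE 0.38, adjusted p = 0.964) and Abca3 at -0.32 (SE 0.35, adjusted p = 0.964).

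Of 39 tested genes at other AD risk loci, 0 were called by limma after K/BxN serum in either genotype, with medians of -0.04 in WT and 0.03 in TASTPM. In WT, Celf1, an RNA-binding protein, was at -0.56 (SE 0.24, adjusted p = 0.684). In TASTPM the lowest unadjusted p belonged to Scimp, a membrane adaptor of immune cells (4.63, SE 1.11, adjusted p = 0.964), and Snx1 (0.83, SE 0.36, adjusted p = 0.964). In TASTPM, Scimp had 0, 1.11 and 69.1 normalized counts under Control ST and 315, 109, 52.9 and 155 under K/BxN ST, so the groups overlapped and low control values set the fold. The paralogs Inppl1 (0.09, SE 0.44) and Abi1 (-0.04, SE 0.19) in WT had adjusted p of 0.968 and 0.971.

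Some members share exon sequence with genes on the opposite strand, and the library kit does not mark strand. Abi3 shares 871 exon bases with Gngt2 and 2933 with Zfp652, and Gngt2 had 867 to 2920.0 and Zfp652 519.9 to 1681 normalized counts, both of which overlap the range of Abi3. Picalm shares 621 bases with 2310010J17Rik, which had 0 to 48.9 counts, and Bin1 shares 543 with A830052D11Rik, which had 2.81 to 124. Sorl1 shares 537 bases with Gm16214, which had 0 to 45.0. Reads from these shared exons cannot be assigned to one gene.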

How the data were processed

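RNA-seq was measured in 14 libraries of sorted dorsal lumbar spinal cord microglia in 4 groups. The authors aligned 150-base paired-end reads with HISAT2 2.1 to GRCm39 (mm39), counted them with featureCounts 1.5.2 and checked quality with FastQC 0.11.9 and Picard. The deposited values are a normalized signal: for each gene, its reads over 1 size factor per library. Whole reads were recovered for 100% of values (tolerance 0.01), at 14223015 to 20239175 reads per library. Intervals cover the spread between libraries, and counting error was not modelled apart.

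Of 14336 entries, 7 were identical repeats. The filter kept genes reaching 10 reads in 7 or more of 14 libraries. log2(normalized count + 1) was fitted with limma 3.58.1 (R 4.3.3, trend in the prior variance, 1 fit to 4 groups), with Benjamini-Hochberg adjustment over all genes tested. Fold changes are on this scale, which understates those of low genes. Single members were also tested with two-sided exact permutation tests (SciPy 1.17.1). The 4 K/BxN ST libraries given apart had more than 5 times the summed monocyte marker count of the highest Control ST library. Positions and lengths are from GENCODE M39 (GRCm39), later than the annotation of the authors.

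Genes named in the text are the members, the 3 genes most correlated with each, close paralogs and, from each list, the genes called by limma or otherwise the 2 with the lowest unadjusted p in each serum comparison. One item that this rule names is not reported here. Trem2, genes that overlap a member and the remaining Ms4a relatives were named after their values were seen. The members, lists and tests were chosen with earlier results of these data known. Alternatives were TMM and library total scaling, pseudocounts of 0.5 and 8, no filter, no trend, only the groups compared, edgeR 4.0.16 and DESeq2 1.42.0 on recovered reads, marker covariates and omission of libraries. A Y-linked covariate in the fit without the 4 libraries, the SD within groups without them, and the SD and correlations leaving out single libraries, were chosen after seeing the data. The scripts were tested on simulated data.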

Additional observations from a re-analysis of the deposited data

How the results depend on the processing

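No paired analysis was possible because the labels give each of the 14 samples a number of its own (R1 to R14) and share none between groups. Over 27 alternatives (14 of them leaving out 1 library), 979 of 1060 member values kept their direction and their side of the threshold, 81 changed sign, and 0 became a call. The lowest adjusted p of a member was 0.234 (Picalm under Control ST, DESeq2). Counts of members called stayed at 0 in all alternatives. The causes of the changes below were not tested.

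Calls among all genes moved more. For WT serum, limma called 1 gene, DESeq2 127, a Y-linked covariate 3, no trend 2, and 0 were called with edgeR (782 genes with an unadjusted p below 0.05), a pseudocount of 8, only the groups compared, a monocyte and neutrophil covariate, or without the 4 libraries (538 genes), also with a Y-linked covariate. Leaving out 1 library gave 0 to 17. For TASTPM serum limma called 0 (533 genes with an unadjusted p below 0.05), DESeq2 16 and leaving out 1 library 0 to 1. For genotype under Control ST limma called 0 (704 genes), DESeq2 41, the monocyte and neutrophil covariate 1, the fit without the 4 libraries 1 and leaving out 1 library 0 to 11. For the interaction limma called 0 (385 genes), DESeq2 12 and leaving out 1 library 0 to 3.

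Signs of log2 fold changes turned as follows. In WT serum, Cd2ap became -0.10 with DESeq2 and -0.086 with edgeR. With the monocyte and neutrophil covariate, WT serum values became 0.018 for Bin1, 0.083 for Picalm, -0.21 for Sorl1, 0.045 for Inpp5d, 0.020 for Cd33, 0.071 for Abi3 and -0.011 for Ms4a6d. Without the 4 libraries they became 0.0073 for Bin1, 0.13 for Picalm, -0.39 for Sorl1, -0.079 for Plcg2 and 0.018 for Abi3, and with a Y-linked covariate added 0.042 for Picalm, 0.15 for Cd33, 0.060 for Abi3 and -0.28 for Ms4a6d. Those last values do not separate serum from Y-linked expression, since the WT serum groups left in that fit do not overlap in Y-linked counts. In TASTPM serum, Inpp5d became 0.034 with DESeq2, 0.033 with edgeR, 0.082 with the Y-linked covariate, 0.36 with the monocyte and neutrophil covariate, 0.52 without the 4 libraries and 0.49 with the Y-linked covariate added. Abi3 became 0.13 with the monocyte and neutrophil covariate, 0.13 without the 4 libraries and 0.12 with the Y-linked covariate added, and Cd33 0.00063 without the 4 libraries. For genotype under Control ST, Sorl1 became 0.32 with the Y-linked covariate, and without the 4 libraries and with that covariate Sorl1 became 0.20, Inpp5d 0.0044, Plcg2 0.018 and Ms4a6d -0.0024. For genotype under K/BxN ST, Sorl1 became -0.14 with the Y-linked covariate and Plcg2 0.25 without the 4 libraries. For the interaction, the Y-linked covariate gave 0.39 for Bin1, 0.066 for Picalm, -0.47 for Sorl1, -0.058 for Plcg2, 0.11 for Cd33 and -0.082 for Ms4a6d, library totals gave -0.023 for Abi3, the fit without the 4 libraries gave 0.033 for Cd33, and adding the Y-linked covariate to it gave 0.084 for Bin1, -0.12 for Sorl1 and -0.063 for Plcg2.

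Leaving out 1 library in turn, ranges that crossed 0 were, in WT serum, -0.29 to 0.41 for Cd2ap, -0.052 to 0.16 for Plcg2 and -0.071 to 0.38 for Sorl1, and in TASTPM serum -0.32 to 0.14 for Inpp5d. For genotype under Control ST they were -0.44 to 1.02 for Abca7 (negative without WT Control ST library 1), -0.16 to 0.033 for Inpp5d and -0.85 to 0.15 for Sorl1. For genotype under K/BxN ST they were -0.35 to 0.033 for Abi3, -0.42 to 0.025 for Bin1, -0.028 to 0.43 for Inpp5d, -0.19 to 0.029 for Plcg2 and -0.12 to 0.34 for Sorl1. For the interaction they were -1.45 to 0.016 for Abca7, -0.16 to 0.22 for Abi3, -0.31 to 0.13 for Bin1, -0.64 to 0.0496 for Cd2ap, -0.22 to 0.14 for Cd33, -0.056 to 0.33 for Ms4a6d and -0.0505 to 0.94 for Sorl1.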
